A study of Homo sapiens with 8 samples.

Results

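The 9 genes described here encode parts of the tight junction: the claudins *CLDN1*, *CLDN4* and *CLDN7*, the MARVEL-domain membrane proteins *OCLN* and *MARVELD3*, the junctional adhesion molecule *F11R*, and the cytoplasmic plaque proteins *TJP1*, *TJP3* and *CGN*. They were taken by name, as junction components, from the 33791 genes with estimated counts. Each of the 9 had enough counts to be tested. Their mRNA levels were measured by RNA-seq in 8 libraries of PNT2, an immortalized human prostate epithelial cell line.

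There were 4 genotypes with 2 libraries each, replicates A and B: WT cells, cells labelled *ERF* KD (short hairpin knockdown of the ETS family repressor *ERF*), cells labelled *CIC* KO (CRISPR guides against the HMG-box repressor *CIC*), and cells labelled CIC-ERF codeletion, called *ERF* KD + *CIC* KO here. No drug response or time course was studied in these libraries. The methods name puromycin as the selection agent for *ERF* hairpins and blasticidin for *CIC* guides. The part of this selection in the differences was not tested. Per the methods, the double line was made with the same *ERF* hairpin and either of a pair of *CIC* guides. Neither the labels nor the methods say which guide a replicate of it carried, which hairpin or guide a single-loss replicate carried, or whether A and B were separate cultures, so the p-values measure only the spread between these libraries. The study asked what loss of both repressors, which are neighbours on chromosome 19, does to prostate cells.

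Tight junctions seal the space between epithelial cells near their apical surface. Claudins form the sealing strands and set which ions pass, occludin and MARVELD3 sit in the same strands, and F11R (JAM-A) is an adhesion molecule beside them. TJP1 and TJP3, also called ZO-1 and ZO-3, are scaffolds that hold claudins and occludin by their tails, and cingulin, the product of *CGN*, ties the scaffold to actomyosin. Loss of strand proteins is a common feature of epithelial to mesenchymal transition.

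Libraries held 19477473 to 25813157 estimated counts. *ERF* was not low where the label says so: it stood at 55.8 and 55.9 CPM (counts scaled to library size) in WT, 81.2 and 77.8 CPM in those labelled *ERF* KD, 18.8 and 11.7 in those labelled *CIC* KO, and 11.6 and 10.4 in *ERF* KD + *CIC* KO. File names of the 4 libraries with a single loss also disagree with these labels, with the letters for *ERF* and *CIC* exchanged. The methods state that the stable lines were checked at the RNA and protein level, and those measurements were not analysed here. The labels were kept, and every direction below that involves a single-loss group is that of the libraries so labelled. *CIC* mRNA was 128 and 129 CPM in WT, 109 in both libraries labelled *ERF* KD, 132 and 131 in those labelled *CIC* KO, and 90.9 and 66.4 in the double line, and a guide can disrupt a gene without lowering its mRNA.

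Epithelial markers were present in all 8 libraries, but at different levels. The summed level of 8 of them (*EPCAM*, *CDH1*, *KRT5*, *KRT8*, *KRT14*, *KRT18*, *KRT19*, *DSP*) was 1668 and 2042 TPM (a level scaled for library size and transcript length) in the libraries labelled *ERF* KD and 3820.2 to 4655 TPM in the other 6. The summed level of 11 mesenchymal markers was 1398 and 1685 TPM in the libraries labelled *ERF* KD against 86.4 to 219 TPM, with *LUM* listed at 0 throughout. Most of that sum was *VIM*, at 1284 and 1592 TPM. Endothelial markers summed to 2.71 to 29.8 TPM and leukocyte markers to 17.2 to 56.8 TPM, with *PTPRC* at 0.742 to 1.40 TPM. Of the 9 junction genes below, 8 fell in the same libraries as the epithelial sum, and *CLDN1* was not called. The part of a shift in cell state or cell make-up in these changes was not tested. In bulk RNA, fewer cells that express a gene and less of its RNA per cell cannot be told apart.

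The genes lie on 8 chromosomes. In GENCODE release 29 (GRCh38), to which the transcripts were matched by identifier, *CLDN1* is at chr3:190305701-190322475 on the minus strand, *CLDN4* at chr7:73799542-73832693 (plus) and *CLDN7* at chr17:7259903-7263983 (minus). *OCLN* is at chr5:69492292-69558104 (plus) and *MARVELD3* at chr16:71626161-71642114 (plus). *F11R* at chr1:160995211-161021348 (minus) and *CGN* at chr1:151510510-151538692 (plus) share a chromosome. *TJP1* is at chr15:29699367-29968865 (minus) and *TJP3* at chr19:3708109-3750813 (plus).

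The 250 bases before a RefSeq transcription start (GRCh38.p14) were searched on both strands for 3 kinds of motif: TGAATGAA, TGAATAAA, TCAATGAA or TCAATAAA, the letters bound by CIC; CCGGAAGT, an ETS factor core of the kind ERF can bind; and the E-box CACCTG, which ZEB and SNAI repressors of junction genes bind. RefSeq windows were at hand for 7 of the 9 genes (13 windows), and not for *F11R* and *MARVELD3*. The sequences shown are those where the claudins differ and the E-boxes of the scaffold and occludin genes. *CLDN1* was the only one of the 7 genes with a CIC motif, a pair of overlapping TGAATGAA copies 245 and 241 bases before the start. TGAATGAA was in 1.4% of all 35116 windows, and any of the 4 forms in 4%. The stretch below is chr3:190322476-190322696 on the minus strand, 5′ to 3′, with the motif pair in capitals, and it ends just before the first base of the GENCODE transcript.
CLDN1 upstream: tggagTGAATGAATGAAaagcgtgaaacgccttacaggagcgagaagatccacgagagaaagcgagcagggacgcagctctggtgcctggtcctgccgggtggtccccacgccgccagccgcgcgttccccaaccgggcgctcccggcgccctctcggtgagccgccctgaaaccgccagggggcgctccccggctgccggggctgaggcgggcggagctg

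*CLDN7* had 4 E-boxes and 1 ETS core in its window before the start of CLDN7-201. Its other window, at chr17:7263214-7263463 before CLDN7-202, held none of the 3 motifs. Of the gene's TPM, CLDN7-201 carried 48.5% and 46.6% in WT and CLDN7-202 26.4% and 34.8%. In the libraries labelled *ERF* KD these shares were 37.4% and 35.4% for CLDN7-201 and 40.9% and 28.7% for CLDN7-202. At least 1 E-box was in 17.5% of all windows, 4 or more were in 0.122%, and the ETS core was in 3.42%. The 4 E-boxes lay 174, 135, 20 and 9 bases before the start, and the ETS core 145 bases before it. These are the 3 stretches that hold them, on the minus strand at chr17:7262633-7262662, chr17:7262599-7262628 and chr17:7262479-7262508. Capitals mark E-boxes, read as CACCTG or on the other strand as CAGGTG, and in the second stretch also the ETS core, read as ACTTCCGG.
CLDN7 distal: tcttcctcctCACCTGggcaaggaggggtg
CLDN7 middle: ccacgACTTCCGGttCAGGTGagtgtccct
CLDN7 proximal: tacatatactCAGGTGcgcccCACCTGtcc

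Single E-boxes stood in both windows of *OCLN* (chr5:69492502-69492531 and chr5:69492645-69492674, plus strand), in 1 of 4 windows of *TJP1* (chr15:29969120-29969149, minus strand) and in 1 of 2 windows of *TJP3* (chr19:3721707-3721736, plus strand). That *TJP1* window lies before a start at chr15:29969049. TJP1-201, TJP1-202, TJP1-204 and TJP1-209, whose levels are given below, start at chr15:29821548 to 29822503. The *TJP1* windows nearest to those starts held none of the 3 motifs. *CLDN4* and *CGN* had none of the 3 motifs in the windows searched. No binding was measured at any of these letters in the data used here, and a link between motifs and changes in level was not tested.
OCLN first window: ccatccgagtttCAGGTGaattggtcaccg
OCLN second window: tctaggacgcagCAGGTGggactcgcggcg
TJP1 window: gcggccggcgcgCAGGTGgcccggcctcgc
TJP3 window: gagacctggaggaggaagaggggCAGGTGc

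Compared to WT, 8 of the 9 genes were lower in the libraries labelled *ERF* KD and none was higher. *CLDN7*, *MARVELD3* and *TJP3* fell most, by 10.4-fold to 18.3-fold, *CLDN4*, *CGN* and *F11R* fell by 2.89-fold to 4.33-fold, *OCLN* and *TJP1* fell by 1.81-fold and 1.61-fold, and *CLDN1* did not pass the test. Of all 14653 genes tested, 6.07% were lower and 4.01% higher in this comparison (adjusted p under 0.05, edgeR). The median log2 fold change was -2.09 over the 9 genes and 0.01 over all genes. No gene of the 9 was called against WT in the double line or in the libraries labelled *CIC* KO.

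**Figure D1:**
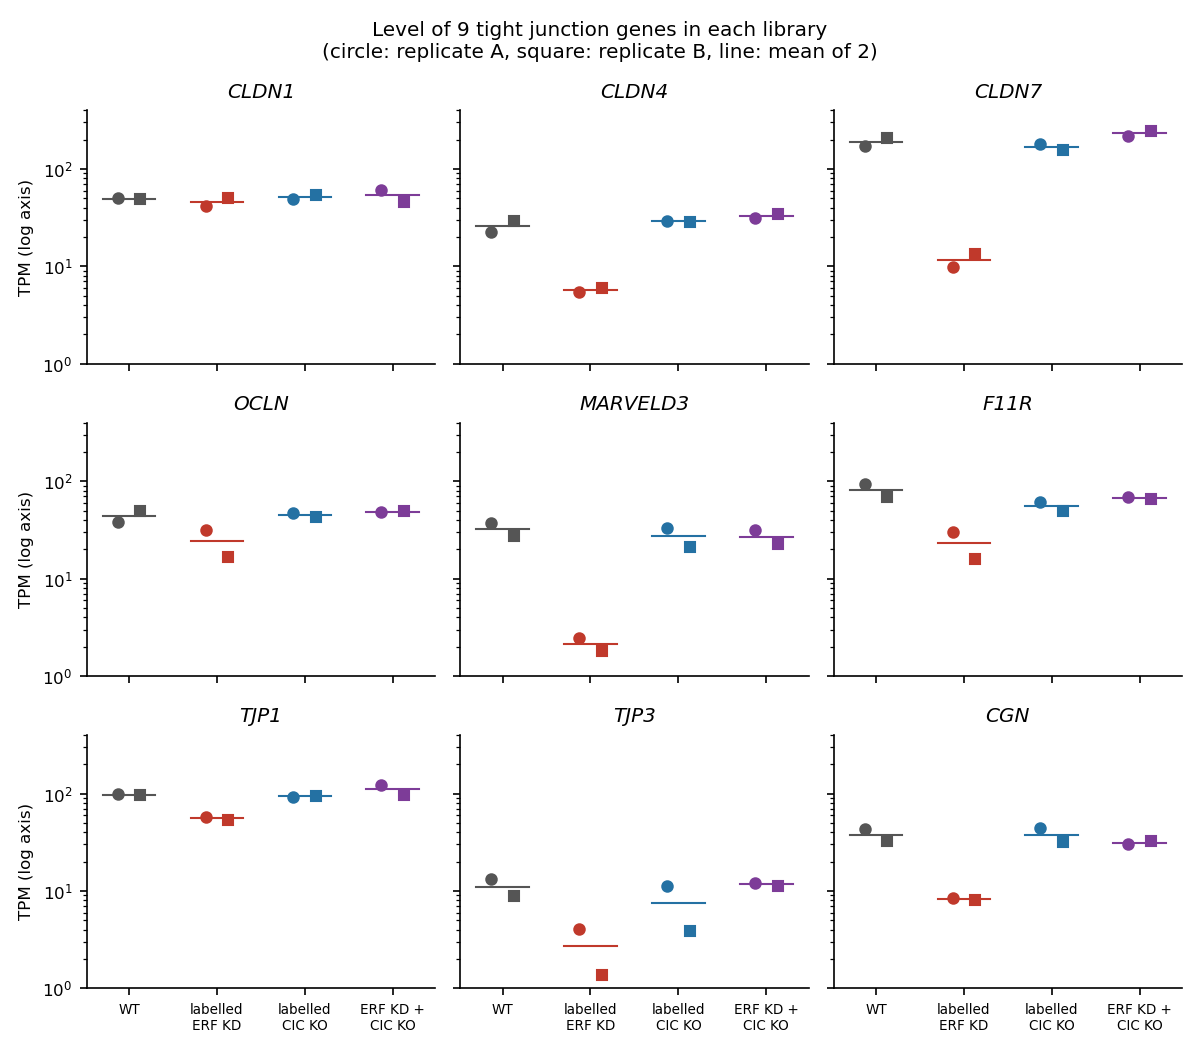
TPM of each of the 9 genes (log axis) in the 8 libraries, by genotype, with circles for replicate A, squares for replicate B and a line at their mean. In the libraries labelled *ERF* KD *CLDN7* sits at 9.79 and 13.3 TPM and at 157 TPM or more elsewhere, while the points of *CLDN1* overlap in all 4 genotypes.

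*CLDN7*, a claudin of glandular epithelia that also binds EPCAM, was at 174 and 207 TPM in WT, 9.79 and 13.3 TPM in the libraries labelled *ERF* KD, 179 and 157 TPM in those labelled *CIC* KO, and 217 and 245 TPM in *ERF* KD + *CIC* KO. It was the highest of the 9 genes in the 6 libraries other than those labelled *ERF* KD and was passed by *TJP1*, *CLDN1*, *OCLN* and *F11R* in those. Its log2 fold change against WT was -4.19 (SE 0.202, adjusted p = 3.47e-05), an 18.3-fold lower level. Of its exonic bases 269 also belong to AC003688.1, read from the same strand, which is a protein-coding gene with 0 estimated counts in both libraries labelled *ERF* KD and 17.6 to 52.6 in the others. Counting the pair together gave -4.20.

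*CLDN4*, a claudin known as a receptor for a clostridial enterotoxin, was present at a lower level than *CLDN7*. It was at 22.3 and 29.2 TPM in WT, 5.45 and 6.06 TPM in the libraries labelled *ERF* KD, 29.5 and 28.8 TPM in those labelled *CIC* KO, and 31.0 and 34.2 TPM in the double line. The libraries labelled *ERF* KD lay below the other 6 without overlap. Against WT the log2 fold change was -2.11 (SE 0.214, adjusted p = 0.00071), 4.33-fold lower.

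*CLDN1*, a barrier claudin found in most epithelia, stayed within a narrow range. It stood at 50.1 and 48.9 TPM in WT, 41.6 and 50.1 TPM in the libraries labelled *ERF* KD, 49.0 and 53.8 TPM in those labelled *CIC* KO, and 61.4 and 45.5 TPM in the double line, so that all groups overlapped. The log2 fold change in the libraries labelled *ERF* KD was -0.11 (SE 0.174, adjusted p = 0.741), with a 95% interval from -0.51 to 0.28. A fall as large as that of *CLDN4* lay outside this interval.

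The claudins therefore changed places. The log2 ratio of *CLDN7* to *CLDN1* (in TPM) was -2.09 and -1.91 in the libraries labelled *ERF* KD and 1.54 to 2.43 in the other 6. For *CLDN4* to *CLDN1* it was -2.93 and -3.05 against -1.17 to -0.41. *CLDN7* also fell relative to *CLDN4*, with log2 ratios of 0.84 and 1.14 against 2.45 to 2.96. None of these ranges overlapped. Set against WT alone, 2 libraries against 2, an exact two-sided permutation test of a ratio cannot give a p below 0.333.

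Summed over 23 claudin genes, claudin mRNA was 117 and 128 TPM in the libraries labelled *ERF* KD and 281 to 370 TPM in the others. *CLDN7* made up 8.33% and 10.4% of it there, against 55.7% to 66.2% elsewhere. *CLDN1* was the leading claudin in those 2 libraries, with 35.4% and 39.1% of the total against 12.3% to 19.1%. *CLDN11*, better known from myelin and the testis, rose from 10.9 and 5.61 TPM in WT to 30.4 and 24.2 TPM, by 1.77 on the log2 scale (SE 0.379, adjusted p = 0.0229), and became 25.9% and 18.9% of claudin mRNA. *CLDN12* kept a level of 18.0 to 26.4 TPM in all 8 libraries.

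**Figure D2:**
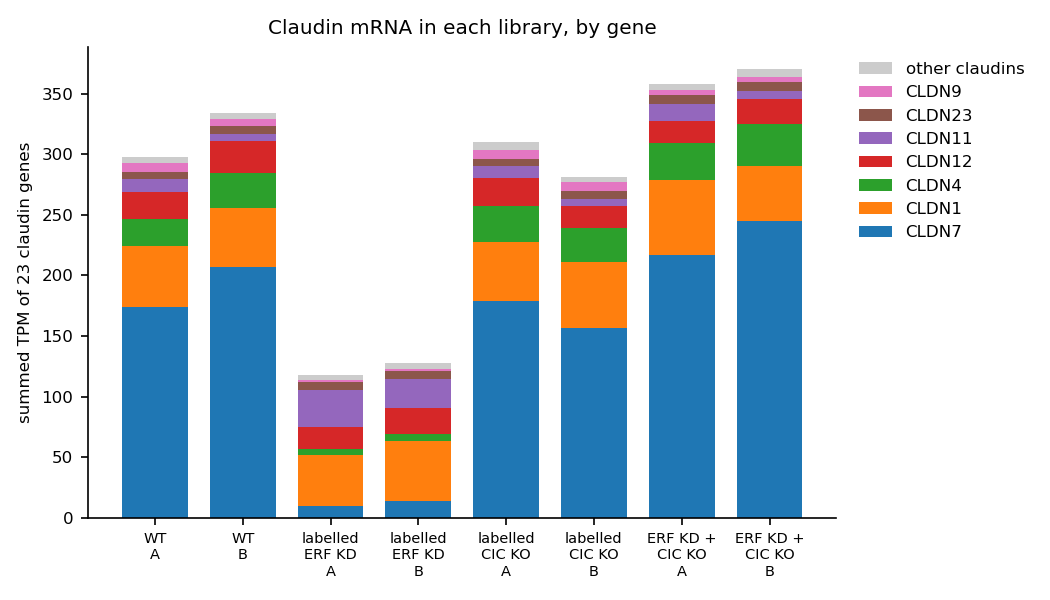
Summed TPM of 23 claudin genes in each of the 8 libraries, stacked by gene, with the claudins not drawn singly in grey. The bars of the 2 libraries labelled *ERF* KD reach 117 and 128 TPM, of which *CLDN1* is the largest piece, while *CLDN7* is the largest piece of the other 6 bars.

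Of the other 20 claudins 8 had enough counts to be tested. Against WT, 1 of them rose (*CLDN11*) and 1 fell in the libraries labelled *ERF* KD, where 4.01% of all genes rose and 6.07% fell. The one that fell was *CLDN9*, from 7.38 and 5.70 TPM to 1.45 and 1.46 TPM (log2 fold change -2.13, SE 0.254, adjusted p = 0.00161). The median over the 8 was 0.17. *CLDN3* was low throughout, at 0.68 and 1.04 TPM in WT, 0.18 and 0.09 TPM with the *ERF* KD label, and passed the test only between these and *ERF* KD + *CIC* KO, at 1.13 and 1.08 TPM (log2 fold change 2.82, SE 0.717, adjusted p = 0.0373).

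The MARVEL-domain proteins differed from each other. *MARVELD3* was at 37.1 and 27.7 TPM in WT, 2.43 and 1.82 TPM in the libraries labelled *ERF* KD, 33.1 and 21.3 TPM in those labelled *CIC* KO, and 31.6 and 22.5 TPM in the double line. Compared to WT it was 13.3-fold lower where labelled *ERF* KD (log2 fold change -3.73, SE 0.270, adjusted p = 0.000139), with no overlap. Within each group replicate A was the higher one. The gene shares 1068 exonic bases with *PHLPP2* on the opposite strand, and the strandedness of the libraries is not given in the sources used here.

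*OCLN*, which encodes occludin, was at 38.5 and 49.7 TPM in WT, 31.8 and 16.8 TPM in the libraries labelled *ERF* KD, 46.7 and 42.4 TPM in those labelled *CIC* KO, and 47.8 and 49.2 TPM in the double line. The libraries labelled *ERF* KD were the lowest, with replicate A of them close to the lower WT replicate. The log2 fold change of -0.86 (SE 0.226) only just passed the test, with an adjusted p of 0.0495. Leaving out replicate B of the libraries labelled *ERF* KD gave -0.54 with an adjusted p of 0.149, leaving out replicate A of them gave -1.28, and the call was lost in 7 of 8 fits that left out 1 library. *OCLNP1*, an annotated copy of part of *OCLN* at chr5:71074225-71093193, is listed in the same tables, so reads may have been divided between them.

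The log2 ratio of *MARVELD3* to *OCLN* was -3.71 and -3.20 in the libraries labelled *ERF* KD and -1.13 to -0.05 in the other 6 (TPM). *MARVELD2*, of the same family (tricellulin, found at the corners where cells meet), was at -1.68 on the log2 scale (SE 0.301, adjusted p = 0.0106) in the libraries labelled *ERF* KD.

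*F11R* was at 93.1 and 68.9 TPM in WT, 30.5 and 16.1 TPM in the libraries labelled *ERF* KD, 61.1 and 49.7 TPM in those labelled *CIC* KO, and 68.8 and 65.8 TPM in the double line. On the count scale, which the test uses, WT was at 176 and 171 CPM, the libraries labelled *CIC* KO at 170 CPM each and the double line at 163 and 193 CPM. WT thus stood above the libraries labelled *CIC* KO in TPM more than in CPM. The short transcript F11R-203 carried 37.9% and 23.2% of the gene's TPM in WT, and 10.5% and 0% of it in the libraries labelled *CIC* KO. The libraries labelled *ERF* KD stood at 73.1 and 46.9 CPM, which is -1.53 on the log2 scale relative to WT (SE 0.205, adjusted p = 0.00287). *F11R* has 1853 exonic bases in common with AL591806.3, read from the same strand, which drew 275 to 1175 estimated counts a library, and counting the pair together gave -1.45 (adjusted p = 0.00364).

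Among the scaffolds, *TJP1* changed least. It was at 98.6 and 95.4 TPM in WT, 57.6 and 53.2 TPM in the libraries labelled *ERF* KD, 93.0 and 94.9 TPM in those labelled *CIC* KO, and 123 and 97.2 TPM in the double line. The log2 fold change against WT was -0.68 (SE 0.135, adjusted p = 0.016), a 1.61-fold lower level with no overlap. Leaving out either WT library or either library labelled *ERF* KD left values of -0.72 to -0.66 with adjusted p from 0.0621 to 0.113, which no longer passed the test. *TJP1* was the highest of the 9 genes in the libraries labelled *ERF* KD, where *CLDN7* no longer led.

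*TJP3* was the lowest of the scaffolds. It was at 13.3 and 8.77 TPM in WT, 4.09 and 1.35 TPM in the libraries labelled *ERF* KD, 11.2 and 3.87 TPM in those labelled *CIC* KO, and 12.2 and 11.2 TPM in the double line, so that replicate B of the libraries labelled *CIC* KO fell within the range of those labelled *ERF* KD. In counts the gap was wider, with 50 and 15 estimated counts in the libraries labelled *ERF* KD and 154 to 434 in the others. The log2 fold change on counts was -3.38 (SE 0.520, adjusted p = 0.00546). On TPM it was -1.77 with limma on log2(TPM + 1), at an adjusted p of 0.0746. Of the TPM in replicate A labelled *ERF* KD, 63.8% was assigned to TJP3-204, a transcript of 337 bases that was at 0% in the other 7 libraries.

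*CGN* was at 42.8 and 32.4 TPM in WT, 8.39 and 8.14 TPM in the libraries labelled *ERF* KD, 44.1 and 31.8 TPM in those labelled *CIC* KO, and 30.2 and 32.2 TPM in the double line. The fall in the libraries labelled *ERF* KD was 4.27-fold (log2 fold change -2.09, SE 0.139, adjusted p = 0.000114), and no other group overlapped with them. Relative to *TJP1*, the scaffold it binds, *CGN* went from log2 TPM ratios of -2.03 to -1.08 in the other 6 libraries to -2.78 and -2.71.

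Set against *TJP1* by TPM ratio, the genes other than *MARVELD3* fell into 3 kinds. *MARVELD3* was set against *OCLN* only, as given above. *CLDN7*, *CLDN4* and *CGN* were lower relative to it in the libraries labelled *ERF* KD. The log2 TPM ratio of *CLDN7* to *TJP1* was -2.56 and -1.997 there against 0.73 to 1.33 in the other 6, so that *CLDN7* passed from above *TJP1* to below it. *CLDN4* and *CGN* were below *TJP1* in every library, with ratios of -3.40 and -3.13 against -2.15 to -1.51 for *CLDN4* and of -2.78 and -2.71 against -2.03 to -1.08 for *CGN*. *CLDN1* moved up relative to it, at -0.47 and -0.09 against -1.10 to -0.82. The TPM ratios of *OCLN*, *F11R* and *TJP3* to *TJP1* overlapped between the libraries labelled *ERF* KD and the others. For *F11R* the overlap was narrow, at -0.919 and -1.73 against -0.933 to -0.083. For *TJP3* it was -3.82 and -5.29 against -4.62 to -2.89. In replicate A labelled *ERF* KD, 63.8% of its TPM was TJP3-204, with 3.64 estimated counts. On counts, *TJP3* (-3.38) and *F11R* (-1.53) fell more against WT than *TJP1* (-0.68), on the log2 scale.

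**Figure D3:**
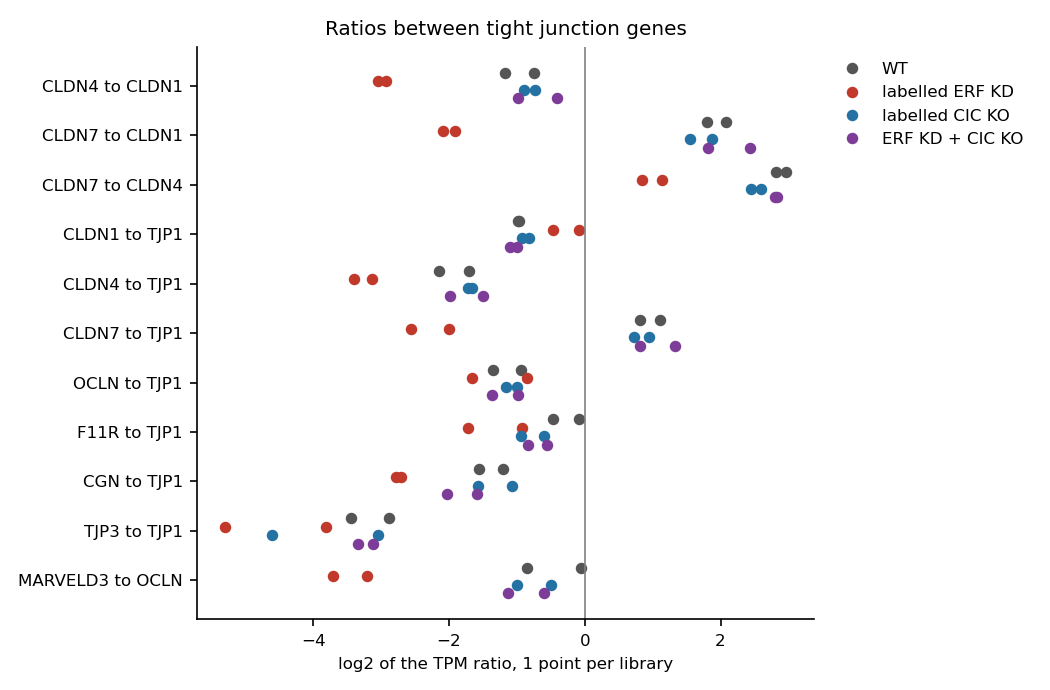
Log2 TPM ratio of 11 pairs of tight junction genes, with 1 point per library coloured by genotype. The red points of the libraries labelled *ERF* KD lie apart from the other 6 on the left for *CLDN7* and *CLDN4* against *CLDN1* and *TJP1*, on the right for *CLDN1* against *TJP1*, and among them for *OCLN* against *TJP1*.

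By level, the order in WT was *CLDN7*, *TJP1*, *F11R*, *CLDN1*, *OCLN*, *CGN*, *MARVELD3*, *CLDN4* and *TJP3* (mean TPM). The replicates of *CLDN1* and *OCLN*, *OCLN* and *CGN*, *CGN* and *MARVELD3*, and *MARVELD3* and *CLDN4* overlapped, so these neighbours did not differ beyond their spread. In the libraries labelled *ERF* KD the order was *TJP1*, *CLDN1*, *OCLN*, *F11R*, *CLDN7*, *CGN*, *CLDN4*, *TJP3* and *MARVELD3*. There *OCLN* overlapped with *F11R*, and both *MARVELD3* values lay within the range of *TJP3*.

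In the libraries labelled *CIC* KO none of the 9 genes was called against WT by edgeR, and none had an unadjusted p under 0.05. DESeq2 and limma called none of them either. Over all genes edgeR called 0% in this comparison, with 587 of 14653 genes at an unadjusted p under 0.05, and DESeq2 called 26 genes. The log2 fold changes of the 9 ran from -0.52 for *TJP3* (SE 0.450) to 0.21 for *CLDN4* (SE 0.199). For *CLDN7* the 95% interval was -0.53 to 0.26, so that a fall as large as in the libraries labelled *ERF* KD lay outside it. *ERF* itself had a log2 fold change of -1.87 here, with an unadjusted p of 1.69e-05 and an adjusted p of 0.248 in edgeR. Its adjusted p was 3.58e-11 with DESeq2, 1.19e-14 in edgeR with no filter on low counts and 0.0477 once replicates were paired by letter, and at its highest over the alternatives 0.999.

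*ERF* KD + *CIC* KO against WT gave 0 calls among the 9 in edgeR, DESeq2 and limma and 0 unadjusted p under 0.05 in edgeR, against 0.0682% of all genes called. The largest differences were *CLDN4* at 0.38 (SE 0.199, 95% interval -0.08 to 0.83) and *CLDN7* at 0.34 (SE 0.172, 95% interval -0.06 to 0.73) on the log2 scale. *CGN* was at 0.00 (SE 0.132). A fall of *CLDN7*, *CLDN4*, *MARVELD3* or *CGN* of the size seen in the libraries labelled *ERF* KD lay outside the 95% intervals. Against the libraries labelled *CIC* KO none of the 9 was called in edgeR, DESeq2 or limma (0% of all genes in edgeR), and only *CLDN7* had an unadjusted p under 0.05 in edgeR. Its log2 fold change there was 0.48 (SE 0.172, adjusted p = 0.534).

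Compared to the libraries labelled *ERF* KD, *ERF* KD + *CIC* KO was higher in 8 of the 9 genes, while 6.04% of all genes were higher and 5.62% lower. This comparison shares the libraries labelled *ERF* KD with the one against WT. *CLDN7* differed by 4.53 on the log2 scale (SE 0.204, adjusted p = 2.48e-05), *MARVELD3* of 3.61 (SE 0.269, adjusted p = 0.000152) and *TJP3* of 3.45 (SE 0.520, adjusted p = 0.00481). *CLDN4* differed by 2.49 (SE 0.215), *CGN* by 2.10 (SE 0.139), *F11R* by 1.57 (SE 0.205), *OCLN* by 1.14 (SE 0.227, adjusted p = 0.0153) and *TJP1* by 0.94 (SE 0.135, adjusted p = 0.00364). *CLDN1* was at 0.29 (SE 0.174, adjusted p = 0.342).

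**Figure D4:**
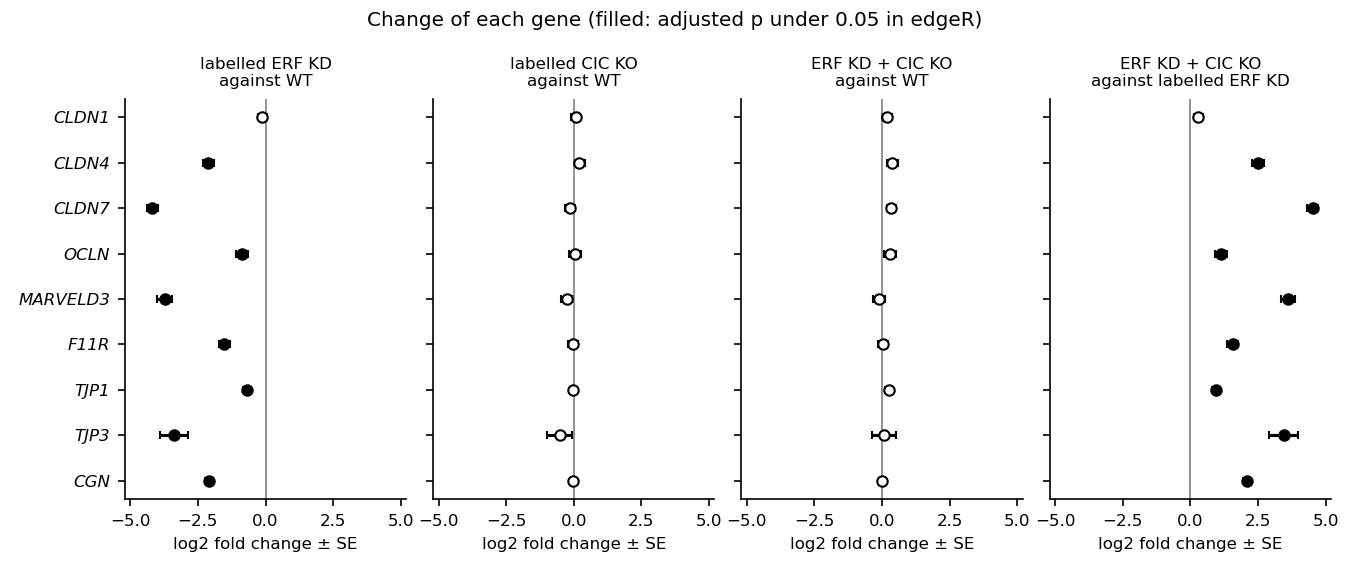
Log2 fold change with its SE (horizontal bars) of each of the 9 genes in 4 comparisons, filled where the adjusted p in edgeR was under 0.05. All 9 points of the 2 middle panels are open, and 8 of 9 are filled on the left of 0 in the first panel and on the right of 0 in the last, with *CLDN1* open in each.

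The interaction term, the log2 difference between the effect of both labelled losses together and the sum of the single ones, was positive and called for 7 of the 9 genes, against 2.67% of all genes with a positive and 1.48% with a negative call. It was 4.67 for *CLDN7* (SE 0.261, adjusted p = 0.0002) and 0.22 for *CLDN1* (SE 0.246, adjusted p = 0.732). *OCLN*, at 1.11, had an adjusted p of 0.109. The number of genes called was less steady than in the direct comparisons. It was 4 without WT replicate A or without *ERF* KD + *CIC* KO replicate A, where *TJP1*, *TJP3* and *F11R* had adjusted p of 0.0518 to 0.136, and 4 to 7 over the 8 libraries left out in turn. The term subtracts both single-loss groups alike, so its values would be the same with the labels of those groups exchanged.

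Other junction genes were divided too. Of 10 other membrane proteins tested (11 listed), 5 fell and none rose in the libraries labelled *ERF* KD, with a median log2 fold change of -1.15. Over all genes tested, 6.07% fell and 4.01% rose in this comparison. *CRB3*, the Crumbs protein that marks the apical membrane, fell by 3.40 on the log2 scale (SE 0.195), from 39.3 and 38.0 TPM to 3.30 and 4.21 TPM. *LSR* and *ILDR1*, angulins that recruit tricellulin to cell corners, had log2 fold changes of -3.21 (SE 0.177) and -3.06 (SE 0.675).

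Plaque and polarity proteins were mixed. Of 23 tested (25 listed), 4 fell and 3 rose, against 6.07% of all genes lower and 4.01% higher. The median log2 fold change was 0.11. *PATJ*, of the Crumbs complex, had a log2 fold change of -2.06 (SE 0.135) and *PRKCZ*, an atypical protein kinase C, of -1.76 (SE 0.157). *PARD3B* rose by 2.44 (SE 0.459) and *CGNL1*, the paralogue of cingulin, by 1.41 (SE 0.222), from 2.39 and 1.86 TPM to 6.79 and 5.07 TPM, while *CGN* fell.

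Among 17 genes listed as regulators of claudin and occludin transcription, 8 fell and 3 rose in the libraries labelled *ERF* KD. The shares over all genes were 6.07% lower and 4.01% higher. The list also holds the splicing factors *ESRP1* and *ESRP2*, which are counted among those that fell. With the *ERF* KD label, both ZEB genes listed rose relative to WT. Their log2 fold changes were 2.78 for *ZEB1* (SE 0.195, adjusted p = 0.000131) and 3.24 for *ZEB2* (SE 0.232, adjusted p = 0.000138). *SNAI1* (-0.50, SE 0.528, adjusted p = 0.617) and *SNAI2* (-1.14, SE 0.452, adjusted p = 0.162) did not pass the test. *OVOL1* (log2 fold change -4.29, SE 0.482) and *OVOL2* (-4.26, SE 0.245), repressors of the mesenchymal programme, *ESRP1* (-4.06, SE 0.195), an epithelial splicing factor, and *EHF* (-3.96, SE 0.603), an epithelial ETS factor, changed most. *ZEB1*, which binds E-boxes of the kind shown above in *CLDN7*, was at 4.94 and 4.08 TPM in WT, 18.5 and 23.1 TPM in the libraries labelled *ERF* KD, 4.08 and 5.05 TPM in those labelled *CIC* KO and 2.001 and 2.17 TPM in the double line, which was lower than the libraries labelled *ERF* KD (log2 fold change -4.05, SE 0.211, adjusted p = 3.76e-05).

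Marker genes outside the junction moved with the same libraries. Of 8 epithelial markers, 7 fell and none rose, against 6.07% of all genes lower and 4.01% higher. *CDH1* (E-cadherin) fell from 128 and 126 TPM to 5.63 and 5.15 TPM. Of 8 mesenchymal markers tested, 3 rose and none fell (*COL3A1*, *VIM* and *CDH2*), with *COL3A1* no higher than 2.64 TPM in any library. None of the 5 endothelial or 3 leukocyte markers tested passed the test. Neither the double line nor the libraries labelled *CIC* KO had a call against WT in any of these lists, where 0.0682% and 0% of all genes were called.

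**Figure D5:**
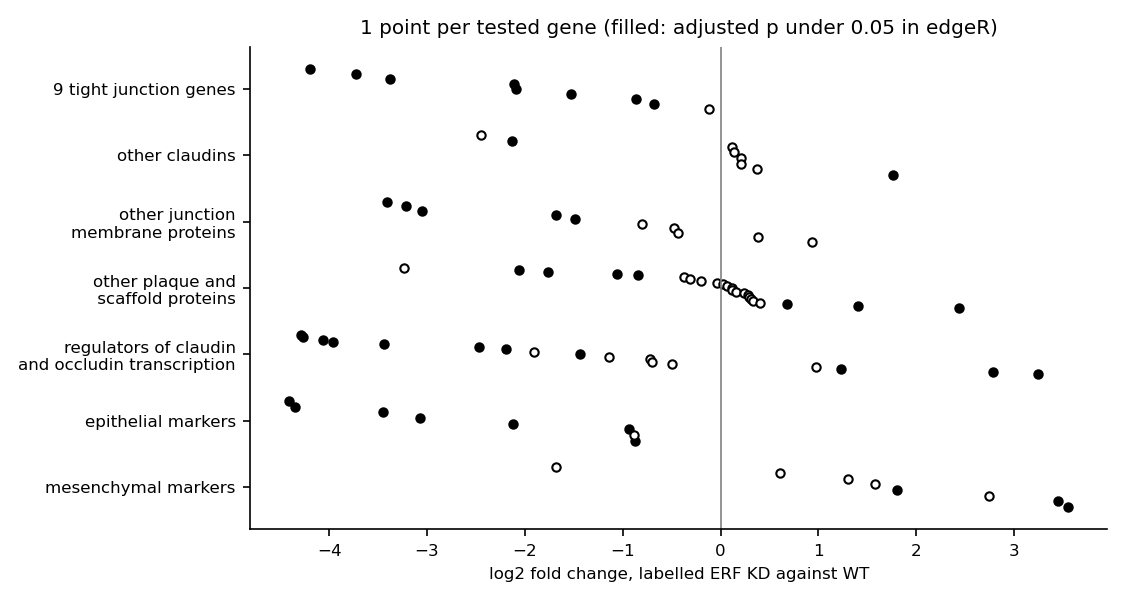
Log2 fold change in the libraries labelled *ERF* KD against WT of each tested gene of 7 lists, 1 point per gene, filled where the adjusted p in edgeR was under 0.05. Filled points of the 9 tight junction genes and the epithelial markers lie only to the left of 0, those of the mesenchymal markers only to the right, and the plaque and scaffold proteins have both.

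Transcripts of one gene could be told apart only as kallisto divided the reads. *CLDN1* and *CLDN4* came almost wholly from 1 transcript each, CLDN1-201 with 93.2% to 100% and CLDN4-201 with 97.7% to 99.4% of the gene's TPM. *TJP1* has an exon of 240 bases at chr15:29719777-29720016, present in TJP1-201 and TJP1-202 and skipped in TJP1-204 and TJP1-209. Of the TPM of these 4 transcripts the forms with the exon made up 41.6% and 44.1% in WT, 54.2% and 49.3% with the *ERF* KD label, 41.5% and 48.9% with the *CIC* KO label, and 55.3% and 51.3% in the double line. The share did not follow the level of *TJP1*, since the libraries with the lowest and the highest levels overlapped.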

How the data were processed

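RNA-seq libraries of PNT2 cells were made by a sequencing company from column-purified RNA. In kallisto's format the authors deposited, for each of the 8 libraries, an estimated count for every transcript (not normalized) and its TPM. The processing notes name hg19, and the methods name RSEM. The kallisto version, transcript annotation and strandedness are not given in the sources used here. Reads that fit several transcripts are divided between them, which adds an uncertainty that replicates do not show for overlapping genes.

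Of 180253 transcripts, 153245 (85%) were matched to GENCODE release 29, giving 33791 genes, for which estimated counts were added up and then rounded (93.2% to 93.3% of each library). Counts were tested with edgeR 4.0.16 (TMM, filterByExpr, glmQLFit and glmQLFTest, R 4.3.3) in 1 fit of all 4 groups over 14653 genes, with Benjamini-Hochberg adjustment and a threshold of 0.05. At the lowest depth 3 counts correspond to 0.169 CPM. On data simulated for the libraries labelled *ERF* KD against WT (14653 genes), 45% of changes of 1 and 73% of changes of 2 on the log2 scale were recovered. Ratios and shares used TPM and were not tested.

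Alternatives were DESeq2 1.42.0, no filter, length-scaled counts, limma 3.58.1 on log2(TPM + 1) and log2(TPM + 0.1), the replicate letter as a block, only the groups compared, *CLDN7* with its overlapping gene, and each library left out. *F11R* with its overlapping gene, and leaving out the libraries labelled *ERF* KD, were added after seeing the data. Replicates were treated as paired by letter in that block, since the difference between B and A correlated across genes in each of 6 pairs of groups (0.136 to 0.335), although no source says what a letter stands for.

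The 9 genes and the other lists were chosen with earlier results of these data known. Of the other lists, genes with an adjusted p under 0.05 were named, at most the 4 with the largest change per comparison and list. A further gene of the epithelial marker list is not reported here. *CLDN3* and *CLDN12* were also described as part of the claudin total. *ZEB2*, *SNAI1* and *SNAI2* were added as genes of the families named for the E-box, and *ESRP2* as a splicing factor in its list.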

Additional observations from a re-analysis of the deposited data

Results flagged for a closer look

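The interaction term of edgeR's fit, by which the effect of the *CIC* KO label depends on the *ERF* KD label, was called for 7 of the 9 genes. The term uses the same libraries labelled *ERF* KD as the comparison against WT, so it is not separate support for the lower levels there. As said above, the number called was less steady than in the direct comparisons. On the log2 scale the term was 4.67 for *CLDN7*, 3.97 for *TJP3*, 3.87 for *MARVELD3*, 2.28 for *CLDN4*, 2.12 for *CGN*, 1.60 for *F11R* and 0.96 for *TJP1*. Each of these genes was called lower in the libraries labelled *ERF* KD against WT, and none of them was called against WT in the other 2 lines. The term subtracts both single-loss groups alike, so an exchange of their labels would leave its values as they are.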

How the results depend on the processing

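Of the 9 genes, 6 to 8 were called in the libraries labelled *ERF* KD against WT under every alternative, 6 to 8 in *ERF* KD + *CIC* KO against those libraries, and 0 in the other 3 pairwise comparisons. For the interaction the count was 8 with DESeq2 and with no filter, 6 on length-scaled counts and with limma, 7 with the replicate block, and 4 to 7 when each library was left out in turn. The paired fit with the replicate letter as a block changed no call of the 9 genes. It did change calls of *ERF* (interaction -0.96, adjusted p = 0.0436, against 0.124 unpaired) and *CIC* (*ERF* KD + *CIC* KO against WT -0.72, adjusted p = 0.0399, against 0.122, and against the libraries labelled *ERF* KD -0.47, adjusted p = 0.0428, against 0.095). Over all genes, calls in edgeR, with the block, with DESeq2 and with limma on log2(TPM + 1) were 1477, 2671, 2057 and 1032 in the libraries labelled *ERF* KD, 0, 1, 26 and 0 in those labelled *CIC* KO, 10, 365, 444 and 1 in the double line (each against WT), and 608, 1400, 1112 and 312 for the interaction. Calls lost in the libraries labelled *ERF* KD were *OCLN* (adjusted p 0.0927 to 0.101) and *TJP3* (0.0657 to 0.0746) on length-scaled counts and with limma, and *OCLN* with only the groups compared (0.0932). The median log2 fold change over all genes moved by less than 0.1 under each alternative. Without the libraries labelled *ERF* KD, 0 of the 9 were called in the comparisons that remain.

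Signs turned only for differences that no fit called. In the libraries labelled *CIC* KO against WT, *CGN* was at 0.051 on length-scaled counts and 0.0086 and 0.0087 with limma, and *F11R* at 0.028 with its overlapping gene. In *ERF* KD + *CIC* KO against WT, *CGN* was at -0.00234 with DESeq2, -0.00319 with only the groups compared, -0.20 on length-scaled counts and -0.25 with limma at either pseudocount, and *F11R* at -0.20 on length-scaled counts and -0.25 with limma. Against the libraries labelled *CIC* KO, *CGN* was at -0.25 on length-scaled counts and -0.26 with limma.

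Leaving out 1 library turned others, given here as lowest and highest values. *CLDN1* ran from -0.28 to 0.019 in the libraries labelled *ERF* KD against WT. In those labelled *CIC* KO the ranges were -0.091 to 0.21 for *CLDN1*, -0.027 to 0.49 for *CLDN4*, -0.33 to 0.086 for *CLDN7*, -0.095 to 0.18 for *OCLN*, -0.062 to 0.028 for *TJP1* and -0.080 to 0.026 for *CGN*. In *ERF* KD + *CIC* KO against WT they were -0.039 to 0.16 for *TJP3*, -0.14 to 0.13 for *CGN*, -0.090 to 0.15 for *F11R* and -0.36 to 0.075 for *MARVELD3*. Against the libraries labelled *CIC* KO they were -0.059 to 0.27 for *CLDN1*, -0.12 to 0.15 for *CGN*, -0.058 to 0.18 for *F11R* and -0.091 to 0.38 for *MARVELD3*.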

Other observations

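For each of the 9 genes, the protein-coding gene outside the lists with the most similar pattern was sought, by Pearson's r of log2 CPM over the 8 libraries among genes with a mean of at least 1 CPM. The libraries share their genotypes and the gap between those labelled *ERF* KD and the others, so a high r is common. It was *ST14* (matriptase, a membrane serine protease of epithelia) for *CLDN7* (r = 0.9997), *RAB25* (an epithelial GTPase of recycling endosomes) for *CGN* (0.999), *PLEKHG6* for *MARVELD3* (0.998), *MBP* for *TJP3* (0.997), *BSPRY* for *CLDN4* (0.995), *CD74* for *F11R* (0.995), *MAGEF1* for *TJP1* (0.991), *AGO2* for *CLDN1* (0.983) and *NBL1* for *OCLN* (0.981). *AGO2*, a core protein of RNA interference, had a log2 fold change of -0.16 (SE 0.246) in the libraries labelled *ERF* KD, as flat as that of *CLDN1*, and *ST14* one of -3.87 (SE 0.195). Among the 9 genes themselves, *CLDN1* correlated with the others at 0.310 to 0.651, and the other 8 with each other at 0.878 to 0.992.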
